A study of Rattus norvegicus with 65 samples.

Results

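The genes described here encode the ion channels, gap junction proteins and sodium pump subunit through which heart muscle cells carry and pass on electrical signals. They were chosen by name, with earlier results of these data known. The 30 rat gene symbols were looked up in the table of 14554 genes, and 28 were found. Kcnd2 and Kcnip2, the other symbols on the list, were not analysed here. PolyA RNA was sequenced in 65 libraries of primary cardiomyocytes, muscle cells taken from the hearts of newborn rats and kept in culture. Cells were treated with 10 mM 5FU (5-fluorouracil) in 1% DMSO, with 2.5 mM Ace (acetaminophen) in 0.25% DMSO or with 1.25 µM Dox (doxorubicin) in 0.25% DMSO, for 6 or 24 hours. The control of 5FU was DMSO1 (1% DMSO) and the control of Ace and Dox was DMSO2 (0.25% DMSO), so Ace and Dox share their control libraries. At 6 hours there were 6 libraries each of 5FU, Ace and DMSO1 and 7 each of Dox and DMSO2. At 24 hours there were 6 each of 5FU and DMSO1 and 7 each of Ace, Dox and DMSO2. Because hearts from several litters were pooled into a common cell suspension, p-values measure the spread between parallel cultures and not between animals. The cells were kept without serum overnight before treatment in all groups.

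The heartbeat is an electrical event. Sodium and calcium currents depolarize the cell, potassium currents bring it back to rest, HCN channels carry the current that paces spontaneous beating, and connexins form the gap junctions that pass the impulse from cell to cell. Neonatal cardiomyocytes beat on their own in culture and still carry T-type calcium and HCN channels that working muscle of the adult heart largely loses.

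Levels are given as CPM, counts scaled to library size, and differences as log2 fold changes, drug minus control, with the standard error (SE) of the fit. A gene was called higher or lower at a Benjamini-Hochberg FDR below 0.01 over all 14554 genes. Groups without overlap have all libraries of one above all libraries of the other, which was common here. At 6 and 24 hours the share of all genes without overlap was 42.6% and 68.2% in Dox. It was 28.2% and 42.9% in 5FU and 24.5% and 26.9% in Ace. Library totals ran from 14332827 to 25738297 estimated counts, and 25 of the 28 genes had at least 10 counts in every library. The exceptions were Kcna4, Kcna5 and Kcne1, for which counting error adds to the spread between libraries. CPM values are compared between groups and never between genes, since they were not divided by transcript length.

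Several libraries stood apart for these genes. Library 1 of 5FU at 6 hours and library 4 of Dox at 6 hours had the highest Hcn2 and Kcne1 and the lowest Gja5 of their groups. Library 3 of DMSO1 at 6 hours and library 7 of Dox at both times had the lowest Scn3b of their groups and also the lowest Nppb (B-type natriuretic peptide). Library numbers carry no meaning beyond naming. Counts of called genes were recomputed without them, an alternative chosen after seeing the data. Without the first pair and library 1 of DMSO1 at 24 hours, 16 genes were called for 5FU and 25 for Dox at 6 hours, beside 17 and 26 with all libraries. Without the other 3 libraries the counts were 16 and 26.

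The cultures held other cells besides muscle, and markers of these cells moved with the drugs. In Dox at 24 hours all 7 endothelial markers were lower, with a summed level of 20.98 to 46.28 CPM beside 257 to 338.9 in DMSO2, and Cldn5 was at 3 counts or fewer in all Dox libraries. At 6 hours all 7 were lower as well, at 74.1 to 123.8 CPM beside 217.5 to 275.1. In 5FU at 24 hours 6 of the 7 were lower (127.9 to 155.1 beside 194.8 to 278.1 CPM) and in Ace 5 (146.5 to 263 CPM). All 8 fibroblast markers were lower in each of the 3 drugs at 24 hours, with sums of 5166 to 5837 CPM in 5FU (DMSO1 9972 to 19900), 7250 to 9277 in Ace and 1917 to 4064 in Dox (DMSO2 15100 to 18890). At 6 hours 6 of the 8 were lower in Ace (7331 to 10950) and in Dox (7758 to 10180), beside 9687 to 14460 in DMSO2, and 2 in 5FU. All 7 macrophage markers were lower in Dox at 24 hours, from 50.7 to 64.9 CPM in DMSO2 to at most 31.1 in Dox, with Cd163 at the floor of 3 counts. Of 10 cardiomyocyte markers 9 were lower in Dox at 24 hours, with sums of 13230 to 18710 CPM beside 40410 to 52620, but not evenly. Myh6, the fast heart myosin, fell to 896 to 1093 CPM from 14330 to 21400 in DMSO2, whereas Tnnt2, cardiac troponin T, was at 5313 to 6889 beside 6279 to 7408. At 6 hours in Dox 5 of the 10 cardiomyocyte markers were higher and 3 lower, with sums of 39460 to 57110 CPM beside 42160 to 47430 in DMSO2. At 24 hours in 5FU 6 of the 10 were lower and 1 higher, with sums of 27640 to 29530 CPM beside 38360 to 44950 in DMSO1. In bulk RNA, fewer cells of a type and less RNA per cell cannot be told apart. Gja5 is also made by endothelial cells, Kcnj8 and Abcc9 by vessel wall cells, and Gja1 by fibroblasts; the part of these cell types in the results was not tested. Of 8 mural (vessel wall) markers 3 were higher and 4 lower in Dox at 24 hours, with sums of 445.9 to 1766 CPM beside 995.9 to 1144.

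More of these genes fell than rose in every drug comparison, and Dox at 24 hours changed the most of them. For 5FU, 17 of the 28 were called at 6 hours, 1 higher and 16 lower, where 47.9% of all genes were called, 23.4% higher and 24.5% lower. At 24 hours 5FU had 22 called, 7 higher and 15 lower, beside 55.8% of all genes (28% higher and 27.8% lower). Ace had 13 called at 6 hours, 1 higher and 12 lower (31.7% of all genes, 16.5% higher and 15.2% lower).

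At 24 hours Ace had 11 called, all of them lower, beside 37.2% of all genes with 19.1% lower. Dox had 26 called at 6 hours, 4 higher and 22 lower (64.2% of all genes, 31.5% higher and 32.7% lower). It had 27 called at 24 hours, 5 higher and 22 lower, beside 81.4% of all genes (40.4% higher and 41% lower). The share of the 28 genes called in Ace at 24 hours, 39.3%, was close to that of all genes.

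The median log2 fold change of the 28 genes was -0.38 for 5FU at 6 hours, -0.44 at 24 hours, -0.18 for Ace at 6 hours and -0.21 at 24 hours. For Dox it was -1.12 at 6 hours and -1.55 at 24 hours, or -1.47 with Kcna5 set at its floor. The median of all genes lay between -0.01 and 0.00 in these 6 comparisons. Scaling between libraries places most genes near 0, so the median of all genes is largely set by the processing. Changes of at least 1 on the log2 scale among called genes numbered 9 of 28 for 5FU at 6 hours and 10 at 24 hours, where all genes had 6.03% and 10.2%. For Dox there were 15 lower and 2 higher at 6 hours and 17 lower and 2 higher at 24 hours, where all genes had 15.4% and 39.1%. For Ace there were 1 and 0 (2.64% and 6.12%).

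**Figure D1:**
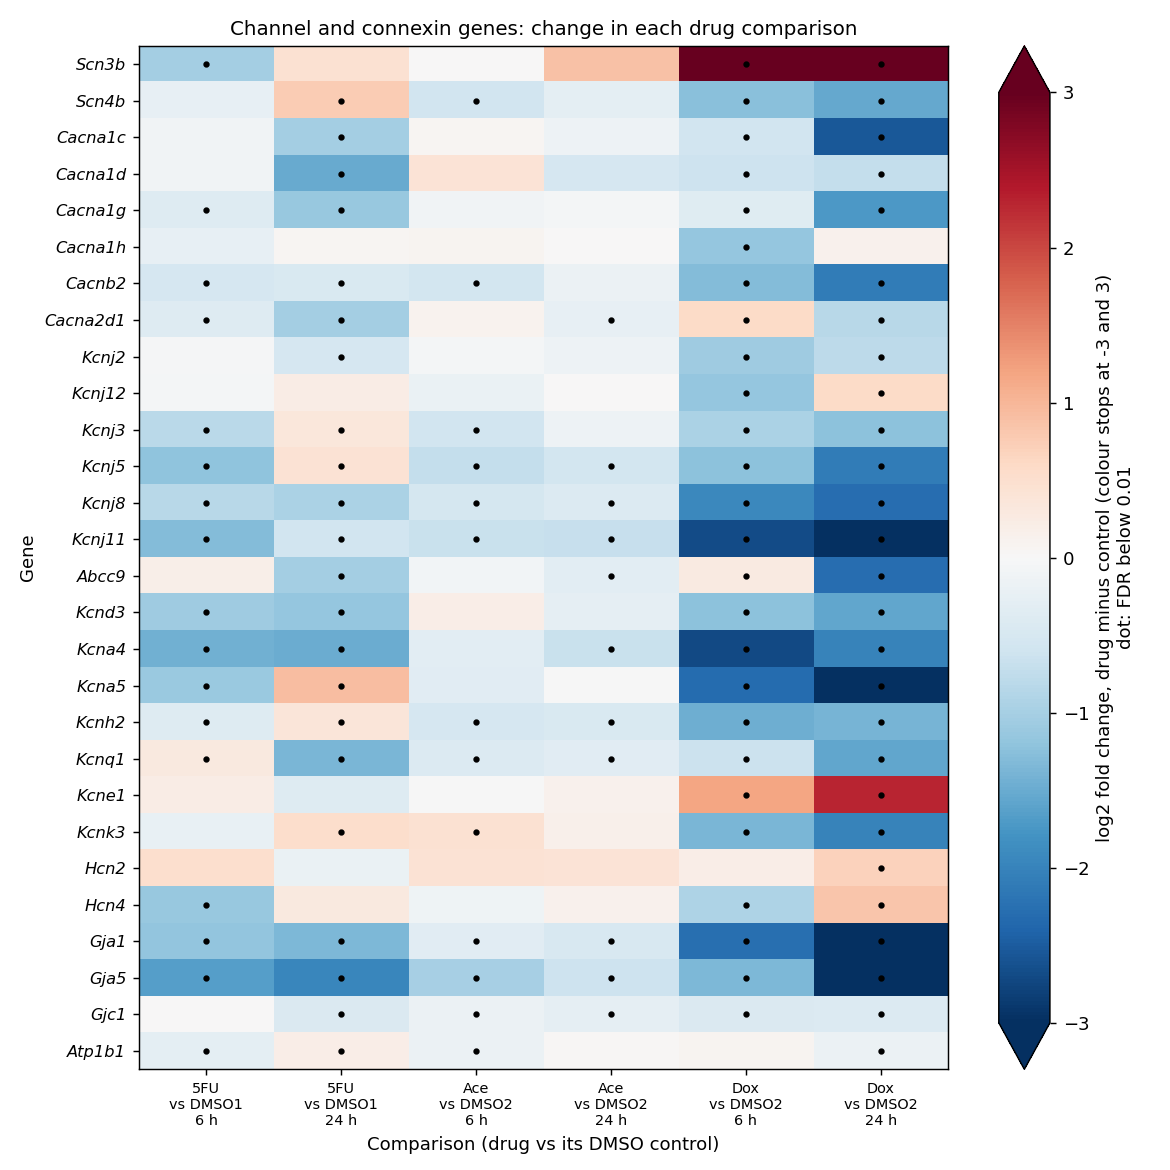
Log2 fold change of the 28 genes (rows, by role) in each drug comparison (columns), red for higher and blue for lower than the control, with a dot where the FDR was below 0.01. Kcnj8, Kcnj11, Gja1 and Gja5 are blue with a dot in all 6 columns, and Scn3b and Kcne1 are the strongest reds, in Dox.

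Kcnj8, Kcnj11, Gja1 and Gja5 were lower in all 6 drug comparisons. In contrast, 13 of the 28 were higher in at least 1 comparison and lower in another, and all 28 were called in at least 1. These patterns were not counted over all genes, of which 81.4% were called in Dox at 24 hours alone. They are therefore not read as traits of this list.

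A connexin gene, Gja5, showed the largest decrease of the list, in Dox at 24 hours. Gja5 encodes connexin 40, the gap junction protein of atrial muscle, the conduction system and arterial endothelium. Its level in DMSO2 at 24 hours ran from 71.7 to 87.5 CPM (median 79.6) and in Dox from 1.53 to 1.99 CPM (median 1.76). All 7 Dox libraries lay far below all 7 control libraries, and the log2 fold change was -5.49 ± 0.16 (SE; FDR = 1.02e-39).

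At 6 hours Gja5 was less affected by Dox, at 4.17 to 12.6 CPM (median 11.5) beside 23.3 to 29.5 (median 27.04) in DMSO2. That log2 fold change was -1.34 ± 0.13 (FDR = 3.4e-14), and the 2 time points differed by -4.15 ± 0.22 on the log2 scale (FDR = 4.43e-26). With 5FU the level was 2.48 to 7.43 CPM (median 6.32) at 6 hours, below the 14.4 to 22.8 CPM of DMSO1, and 14.3 to 19.2 CPM (median 16.5) at 24 hours beside 50.7 to 72.7. These gave log2 fold changes of -1.65 ± 0.15 (FDR = 1.31e-14) and -1.96 ± 0.13 (FDR = 5.18e-20), whose difference between times did not pass the test (-0.31 ± 0.20, FDR = 0.195). Ace lowered Gja5 to 11.2 to 16.3 CPM at 6 hours and 41.3 to 69.8 CPM at 24 hours, both without overlap with DMSO2 (log2 fold changes -1.003 ± 0.13 and -0.63 ± 0.11).

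Gja1 encodes connexin 43, the main gap junction protein of working ventricular muscle. In Dox it fell to 92.9 to 134 CPM at 6 hours (median 110) from 469.2 to 582.7 in DMSO2. By 24 hours the Dox libraries were at 135 to 176 CPM (median 144) and the DMSO2 libraries at 1139 to 1262 (median 1179). The groups did not overlap at either time, and the log2 fold change went from -2.26 ± 0.08 (FDR = 1.48e-35) to -2.99 ± 0.08 (FDR = 9.96e-43). The median in Dox was thus not lower at 24 than at 6 hours, while the level in the controls rose between these times.

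With 5FU, Gja1 was at 133 to 207 CPM at 6 hours, beside 324.2 to 437.9 in DMSO1, and at 361 to 426 CPM at 24 hours, beside 922.9 to 1085. Its log2 fold changes, -1.18 ± 0.08 and -1.34 ± 0.08, differed by less than the test could call (FDR = 0.234). Ace gave the smallest decreases of Gja1, -0.35 ± 0.08 at 6 hours (FDR = 0.000117), where the groups overlapped, and -0.47 ± 0.07 at 24 hours (FDR = 1.31e-07), where they did not. Gjc1, which encodes connexin 45 of the early heart and the nodes, had small changes: it was lower in 5 of the 6 comparisons, with log2 fold changes of -0.43 to -0.18, and was at 0.00 ± 0.05 in 5FU at 6 hours.

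The inward rectifiers of the KATP channel fell with the connexins. This channel, which closes when ATP is plentiful, is built from a pore of Kcnj11 (Kir6.2) or Kcnj8 (Kir6.1) and a sulfonylurea receptor such as Abcc9 (SUR2). Kcnj11 had 40.3 to 48.7 CPM in DMSO2 and 5.52 to 8.48 in Dox at 6 hours, and 80.02 to 91.88 beside 9.47 to 12.9 at 24 hours. Both Dox groups lay well apart from their controls, with log2 fold changes of -2.68 ± 0.08 (FDR = 4.58e-39) and -3.01 ± 0.07 (FDR = 2.54e-44).

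In 5FU the decrease of Kcnj11 was larger at the early time point, where 11.8 to 18.2 CPM stood beside 32.95 to 42.73 in DMSO1, than at 24 hours, where 44.2 to 53.8 stood beside 69.6 to 76.7. The log2 fold changes were -1.31 ± 0.08 and -0.57 ± 0.07, and they differed (0.74 ± 0.10, FDR = 1.59e-08). Ace gave -0.66 ± 0.07 at 6 hours and -0.69 ± 0.06 at 24 hours, without overlap between groups. Kcnj8 fell in Dox from 6.52 to 8.70 CPM to 1.68 to 2.58 at 6 hours (-1.94 ± 0.16, FDR = 5.01e-17) and from 10.9 to 16.5 to 1.90 to 3.62 at 24 hours (-2.28 ± 0.15, FDR = 6.2e-22). It also fell in 5FU (-0.83 and -0.94 at 6 and 24 hours) and in Ace (-0.52 and -0.41). The 24-hour call in Ace (FDR = 0.00841) did not hold in 9 of 14 fits with a single library removed.

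Abcc9 did not follow the pore genes at 6 hours. Its level in Dox was then 215 to 314 CPM (median 249) beside 171 to 254 (median 201) in DMSO2, overlapping groups with a log2 fold change of 0.27 ± 0.08 (FDR = 0.00371). The call of this early increase was lost in 4 of 14 fits with a single library removed. By 24 hours Abcc9 was lower, with 76.1 to 101 CPM in Dox beside 378.5 to 458.5 (-2.29 ± 0.09, FDR = 1.05e-33). In 5FU it went from 0.17 ± 0.09 (FDR = 0.104, not called) to -1.01 ± 0.09 (FDR = 4.5e-15). The time differences of Dox and of 5FU both passed the test.

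**Figure D2:**
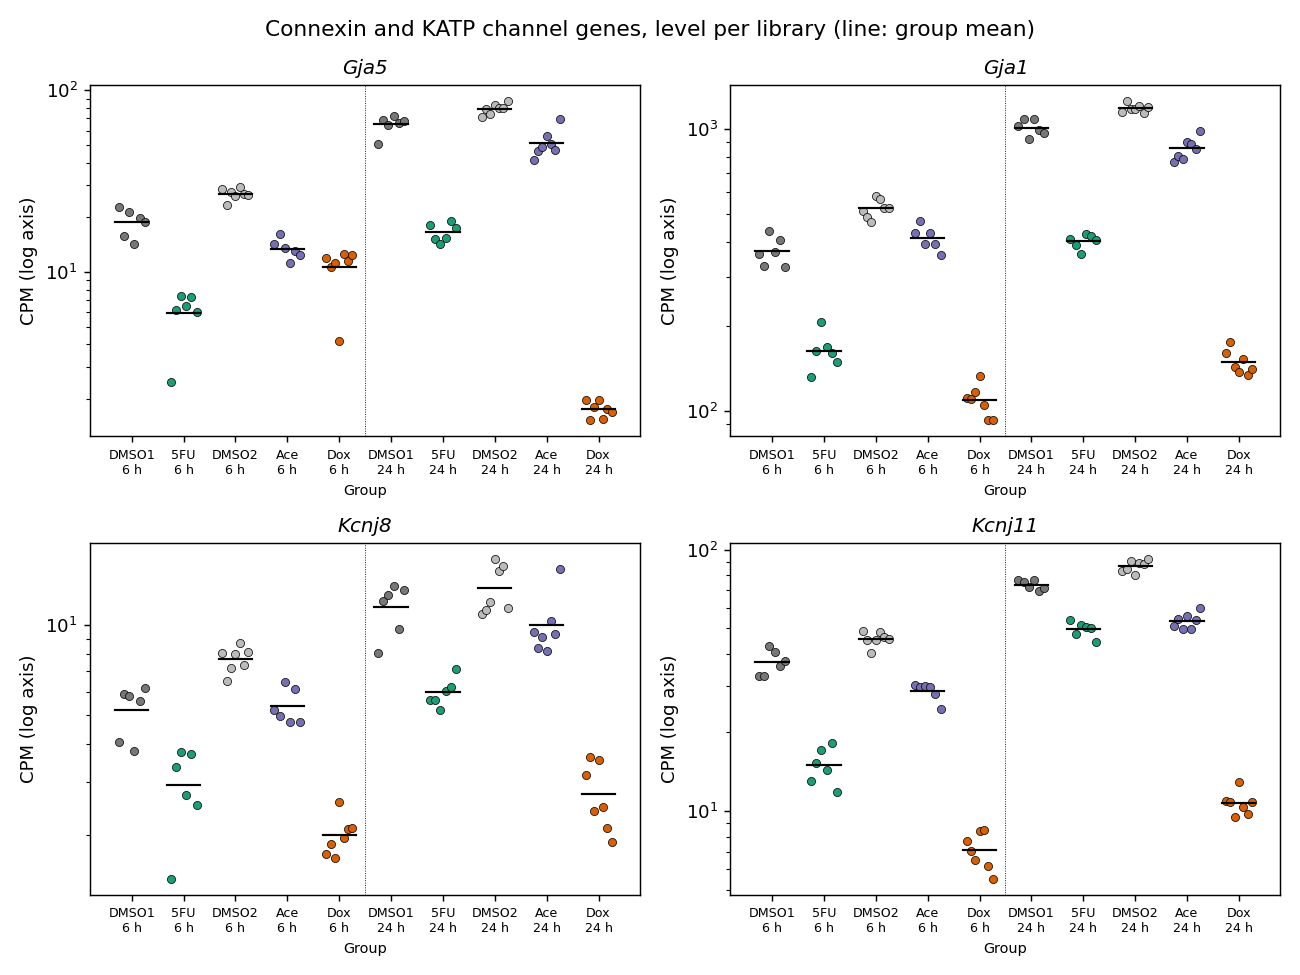
CPM on a log axis of Gja5, Gja1, Kcnj8 and Kcnj11 in each library (points) of the 10 groups, with the group mean as a line and the 6-hour groups left of the dotted line. The Dox points at 24 hours lie below all control points in each panel, and for Gja5 at 1.53 to 1.99 CPM beside 71.7 to 87.5.

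The 250 bases upstream of the RefSeq start are shown for 3 of the 4 genes that were lower in all 6 drug comparisons and for Kcne1, which rose in Dox at both times, because these genes moved together or against the rest. Sequences come from RefSeq on the assembly GRCr8, whose table holds 16 of the 28 genes. They read 5′ to 3′ on the strand of the gene, and capitals mark the matches found. The windows are chr2:187290977-187291226 (+) for Gja5, chr20:36302314-36302563 (+) for Gja1, chr4:177246549-177246798 (-) for Kcnj8 and chr11:45077034-45077283 (-) for Kcne1.
Gja5: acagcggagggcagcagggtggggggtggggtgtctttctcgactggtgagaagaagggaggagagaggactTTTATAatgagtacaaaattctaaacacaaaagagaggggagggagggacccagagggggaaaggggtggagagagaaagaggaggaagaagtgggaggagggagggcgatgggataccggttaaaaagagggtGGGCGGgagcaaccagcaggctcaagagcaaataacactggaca
Gja1: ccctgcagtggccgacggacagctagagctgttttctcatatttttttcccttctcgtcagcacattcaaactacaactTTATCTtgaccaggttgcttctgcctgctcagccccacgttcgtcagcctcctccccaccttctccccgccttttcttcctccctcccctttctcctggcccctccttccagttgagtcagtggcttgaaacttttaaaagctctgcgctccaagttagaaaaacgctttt
Kcnj8: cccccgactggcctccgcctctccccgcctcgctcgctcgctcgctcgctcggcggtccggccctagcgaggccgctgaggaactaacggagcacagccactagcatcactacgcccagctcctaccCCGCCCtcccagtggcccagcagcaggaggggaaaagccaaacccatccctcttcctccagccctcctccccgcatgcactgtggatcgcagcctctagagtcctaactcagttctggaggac
Kcne1: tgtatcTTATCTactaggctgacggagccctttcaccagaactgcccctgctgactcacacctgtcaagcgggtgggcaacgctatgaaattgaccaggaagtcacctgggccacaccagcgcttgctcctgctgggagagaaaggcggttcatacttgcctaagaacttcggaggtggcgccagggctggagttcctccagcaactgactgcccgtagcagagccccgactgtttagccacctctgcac

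Searched on both strands were TATAAA (in 12.9% of 33469 such windows), AGATAA (10.3%), CCAAT (34%), GGGCGG (30.5%), TGACGTCA (1.59%), the CArG box (1.5%), the MEF2 site (2.96%) and the p53 half-site (6.64%). Gja5 held TATAAA 178 to 173 bases and GGGCGG 44 to 39 bases before the start. Gja1 held AGATAA at 171 to 166 bases, Kcnj8 held GGGCGG at 123 to 118 bases and Kcne1 held AGATAA at 244 to 239 bases. Of these matches only the GGGCGG of Gja5 lay on the strand of the gene, and the others lay on the opposite strand. Of the 16 genes with a window, 10 held GGGCGG, 3 held AGATAA, 2 held CCAAT, and 1 each held TATAAA (Gja5) and the p53 half-site (Kcna4). None held TGACGTCA, a CArG box or a MEF2 site. These matches are letters in a window and nothing was measured at them.

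Of the 6 calcium channel genes, 5 were lower and 1 higher in Dox at 6 hours and 5 were lower at 24 hours. In 5FU 3 were lower at 6 hours and 5 at 24 hours, and in Ace 1 at each time. Of all genes 64.2% and 81.4% were called in Dox at 6 and 24 hours. The shares were 47.9% and 55.8% in 5FU and 31.7% and 37.2% in Ace. Cacna1c encodes the pore of the L-type channel whose current triggers contraction. In DMSO2 at 24 hours it was at 208 to 292 CPM (median 254.5) and in Dox at 42.6 to 45.2 (median 43.8). The groups were widely apart, with a log2 fold change of -2.54 ± 0.11 (FDR = 1.14e-31). At 6 hours the Dox libraries, at 101 to 143 CPM, overlapped the controls, at 136 to 219 (-0.58 ± 0.10, FDR = 6.64e-07).

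In 5FU Cacna1c stood at -0.10 ± 0.11 at 6 hours (FDR = 0.443) and fell by 1.03 ± 0.11 on the log2 scale at 24 hours, to 107 to 133 CPM from 172 to 286 (FDR = 1.6e-12). In Ace it was at 0.05 ± 0.10 and -0.16 ± 0.10, neither of them called. Cacnb2, the cytoplasmic beta subunit that brings the L-type channel to the membrane, was lower already at 6 hours in all 3 drugs. Its log2 fold changes were -0.51 ± 0.08 in 5FU, -0.54 ± 0.08 in Ace and -1.29 ± 0.08 in Dox. At 24 hours it had 11.3 to 20.2 CPM in Dox beside 63.5 to 68.4 (-2.09 ± 0.08, FDR = 1.29e-34).

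Cacna2d1, the extracellular alpha2delta subunit of the same channel, went the other way early in Dox. It was at 72.3 to 93.7 CPM beside 47.6 to 65.1 in DMSO2 at 6 hours (0.58 ± 0.08, FDR = 7.96e-10) and at 42.6 to 52.2 beside 71.5 to 93.0 at 24 hours (-0.82 ± 0.08, FDR = 2.86e-15). Neither pair of groups overlapped. In 5FU it was lower at both times (-0.38 ± 0.08 and -1.01 ± 0.08).

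Cacna1d encodes the L-type pore of nodal and neonatal cells and had low levels here, with 2.67 to 3.80 CPM in DMSO2 at 24 hours. It was lower in 5FU at 24 hours, at 0.722 to 1.11 CPM beside 1.73 to 3.54 in DMSO1 (-1.52 ± 0.21, FDR = 6.84e-09). It was also lower in Dox, with -0.62 at 6 hours and -0.72 at 24 hours; the 6-hour call was lost without library 4 of Dox (-0.50) or library 5 of DMSO2 (-0.54). In Ace the estimates were 0.42 ± 0.18 at 6 hours and -0.51 ± 0.17 at 24 hours, neither called, while their difference was (-0.93 ± 0.25, FDR = 0.00494).

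The T-type channels, which open near the resting potential, were both lower in Dox at 6 hours and parted at 24 hours. Cacna1g was lower in Dox at 24 hours, at 127 to 164 CPM beside 422 to 539 (-1.72 ± 0.11, FDR = 1.49e-22), and in 5FU, at 186 to 234 beside 388 to 520 (-1.13 ± 0.12, FDR = 7.08e-13). At 6 hours Cacna1g was called lower in both drugs as well, with overlapping groups (-0.37 in Dox and -0.38 in 5FU). Cacna1h was lower in Dox at 6 hours, at 71.6 to 94.2 CPM beside 138 to 217 (-1.16 ± 0.10, FDR = 4.04e-16), and was at 237.7 to 375.5 beside 220.0 to 299.9 at 24 hours, overlapping groups with 0.13 ± 0.10 (FDR = 0.215). In 5FU and Ace no Cacna1h difference was called.

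**Figure D3:**
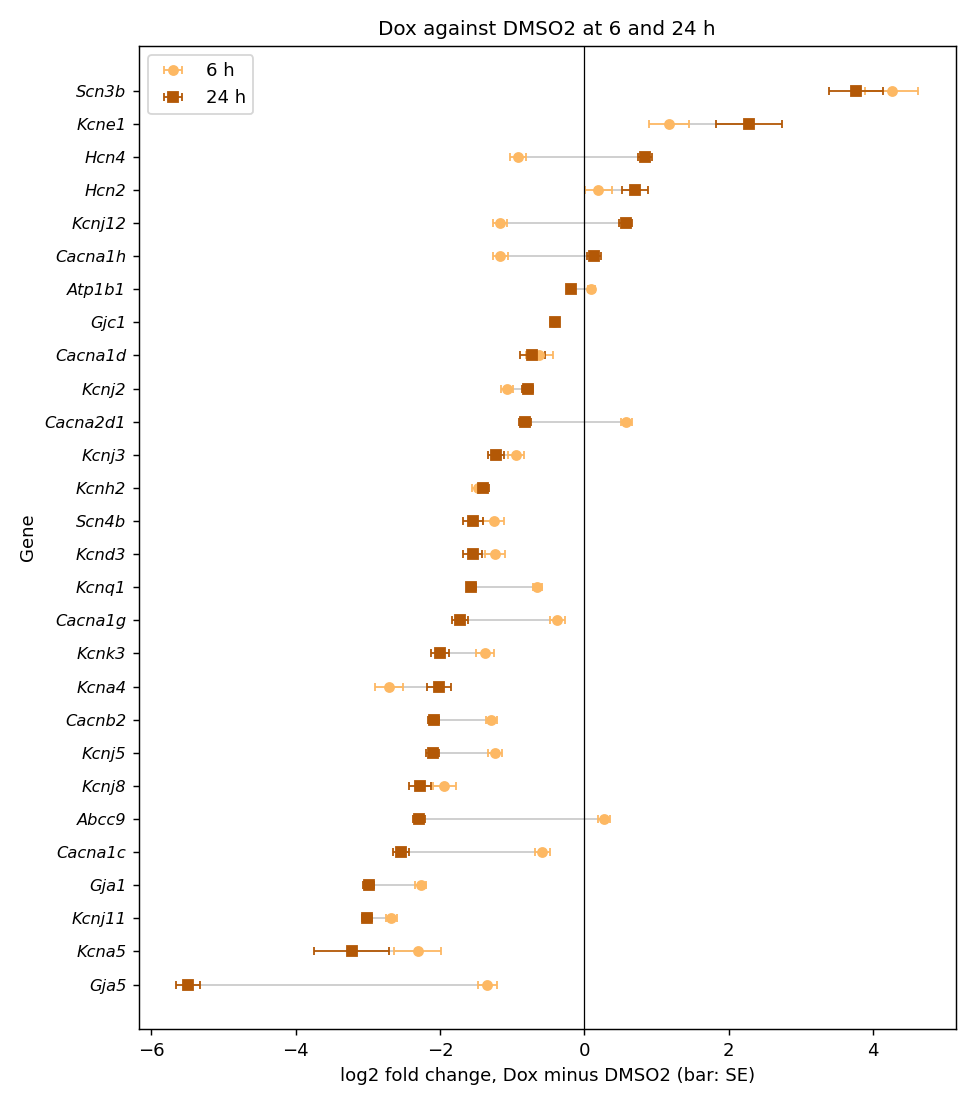
Log2 fold change of each gene in Dox against DMSO2 at 6 hours (circles) and 24 hours (squares), with SE bars, ordered by the 24-hour value. Gja5 (-1.34 to -5.49), Abcc9 (0.27 to -2.29) and Cacna1c (-0.58 to -2.54) moved furthest down between the times. Hcn4, Kcnj12 and Cacna1h cross from below to above 0, with Cacna1h (0.13) not called at 24 hours.

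Scn3b, a beta subunit of the cardiac sodium channel, had the largest increase of the list. In Dox at 6 hours the 7 libraries were at 119.5, 95.8, 98.1, 64.1, 112.3, 74.9 and 9.64 CPM, and DMSO2 ran from 3.33 to 5.34. At 24 hours they were at 62.1, 58.9, 54.2, 45.8, 62.1, 67.2 and 18.1 CPM beside 3.004 to 5.134. All Dox libraries lay above all controls, including library 7, which was the lowest at both times. The log2 fold changes were 4.26 ± 0.37 (FDR = 3.18e-16) and 3.76 ± 0.37 (FDR = 2.79e-14), and without library 7 of Dox and library 3 of DMSO1 they were 4.46 and 3.92.

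Scn3b also differed between the controls at 6 hours. The DMSO1 libraries were at 70.4, 65.1, 5.53, 28.1, 40.7 and 75.3 CPM, all above DMSO2 (3.47 ± 0.37, FDR = 1.31e-10), with library 3 near the DMSO2 range. The 5FU libraries at 6 hours were at 12.4 to 42.9 CPM, so Scn3b was lower against DMSO1 (-1.01 ± 0.33, FDR = 0.00736) at a level above all DMSO2 libraries. This call was lost in 7 of the 12 fits that left out 1 library. At 24 hours DMSO1 was at 4.504 to 7.496 CPM, and 5FU (0.47 ± 0.42) and Ace (0.88 ± 0.41) were not called.

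Nppb, an early stress gene of heart muscle, was chosen after its values were seen. It was lowest in the same library as Scn3b in Dox at both times and in DMSO1 at 6 hours. It was at 27.4 CPM in library 7 of Dox at 6 hours beside 196 to 244 in the others, and at 30.7 CPM in library 3 of DMSO1 beside 195.6 to 883. In DMSO2 at 6 hours it was at 28.02 to 40.21 CPM. The genes parted between groups at 6 hours. Median Nppb was 453 CPM in DMSO1 and 218 in Dox, and median Scn3b was 52.9 in DMSO1 and 95.8 in Dox. The part of the Nppb spread in the Scn3b values was not tested.

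Scn4b, a beta subunit that rises as the heart matures, was lower in Dox at both times, at 1.81 to 3.94 CPM beside 6.24 to 8.85 and at 2.52 to 4.68 beside 9.17 to 16.7. The log2 fold changes were -1.26 ± 0.14 (FDR = 1.38e-11) and -1.55 ± 0.14 (FDR = 3.68e-16). In 5FU at 24 hours it was the reverse: 18.05 to 22.97 CPM stood above 10.7 to 15.9 in DMSO1 (0.77 ± 0.13, FDR = 8.29e-07). In Ace it was lower at 6 hours (-0.59 ± 0.14, FDR = 0.000571) and at -0.29 ± 0.13 at 24 hours (FDR = 0.0482).

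Kcnj2 and Kcnj12 encode Kir2 channels, which hold the resting potential. Both were lower in Dox at 6 hours, Kcnj2 at 7.57 to 11.5 CPM beside 18.1 to 21.6 (-1.07 ± 0.08, FDR = 2.65e-18) and Kcnj12 at 10.0 to 16.1 beside 25.4 to 33.9 (-1.17 ± 0.10, FDR = 1.13e-16). At 24 hours they parted. Kcnj2 remained lower, at 19.9 to 30.9 CPM beside 39 to 45.5 (-0.78 ± 0.07, FDR = 4.77e-15), and Kcnj12 was higher, at 46.2 to 66.5 beside 31.9 to 40.5 (0.57 ± 0.09, FDR = 3.14e-08). In 5FU Kcnj2 was lower at 24 hours (-0.50 ± 0.08), and no Kcnj12 difference was called in 5FU or Ace.

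Kcnj3 and Kcnj5 encode the subunits of the channel that acetylcholine opens in pacemaker and atrial cells. Kcnj5 was lower at 6 hours in all 3 drugs, at 7.93 to 11.9 CPM in 5FU beside 22.5 to 26.9 in DMSO1, and at 14.7 to 16.2 in Ace and 6.58 to 12.3 in Dox beside 22.7 to 27.7 in DMSO2. None of these groups overlapped its control, with log2 fold changes of -1.21 ± 0.10, -0.71 ± 0.09 and -1.24 ± 0.09. At 24 hours the drugs went different ways for Kcnj5. It was higher in 5FU, at 66.3 to 85.3 CPM beside 47.98 to 67.47 with some overlap (0.42 ± 0.09, FDR = 2.94e-05). In Ace it was at 35.3 to 51.5 (-0.55 ± 0.08) and in Dox at 12.2 to 18.3 beside 57.4 to 66.6 (-2.10 ± 0.09, FDR = 2.51e-31).

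Kcnj3 was lower at 6 hours in 5FU (-0.81 ± 0.13), Ace (-0.58 ± 0.11) and Dox (-0.94 ± 0.11) and at 24 hours in Dox (-1.22 ± 0.11). In Ace at 24 hours it was not called (-0.15 ± 0.10, FDR = 0.235). In 5FU at 24 hours it was higher (0.33 ± 0.11, FDR = 0.00736), a call lost in 6 of the 12 fits that left out 1 library. Kcnk3 encodes TASK-1, a background potassium channel, and was lower in Dox at 12.4 to 25.6 CPM beside 37.5 to 46.7 at 6 hours and at 10.4 to 24.6 beside 66.3 to 87.1 at 24 hours (-1.37 ± 0.12 and -1.996 ± 0.12). It was higher in Ace at 6 hours (0.46 ± 0.12, FDR = 0.00122), the one increase called in Ace, and in 5FU at 24 hours (0.53 ± 0.12, FDR = 0.000147).

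The voltage-gated potassium channels end the action potential. Kcna4 and Kcnd3, of the transient outward current, were lower in 5FU and Dox at both times. Kcna4 was at 1.16 to 2.46 CPM in 5FU at 6 hours beside 4.503 to 6.151 and at 1.56 to 3.42 beside 5.96 to 7.57 at 24 hours (-1.44 ± 0.18 and -1.49 ± 0.18). In Dox it was at 0.445 to 1.30 CPM beside 4.82 to 6.26 at 6 hours, on 8 to 25 counts per library (-2.70 ± 0.19, FDR = 1.72e-19), and at 0.726 to 3.51 beside 6.53 to 9.32 at 24 hours (-2.01 ± 0.17, FDR = 3.16e-17). No 5FU or Dox group overlapped its control.

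Kcnd3 gave -1.06 ± 0.14 and -1.17 ± 0.14 in 5FU and -1.23 ± 0.14 and -1.55 ± 0.13 in Dox, at 6 and 24 hours. In Ace, Kcna4 was lower at 24 hours (-0.68 ± 0.15, FDR = 0.000152), and Kcnd3 was not called at either time. Kcna5, of the ultrarapid current, was detected at very few counts. It had 3 to 9 counts per library in DMSO2 at 24 hours and 0 to 2 in Dox, which makes it at least 2.07-fold lower there with the floor set at 3 counts in each Dox library. At 6 hours it had 0 to 6 counts in Dox beside 10 to 27 (-2.31 ± 0.33, FDR = 7.85e-09).

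In 5FU Kcna5 was lower at 6 hours, on 3 to 10 counts beside 9 to 19 (-1.11 ± 0.32, FDR = 0.00225), and higher at 24 hours, on 10 to 23 beside 4 to 12 (0.94 ± 0.30, FDR = 0.00534). The later call was lost in 5 of the 12 fits that left out 1 library.

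Kcnh2, Kcnq1 and Kcne1 belong to the delayed rectifier currents, with Kcnh2 (ERG) as the rapid pore and Kcnq1 and its partner Kcne1 as the slow channel. Kcnh2 was lower in Dox, at 45.3 to 61.8 CPM beside 137 to 170 at 6 hours and at 47.4 to 74.9 beside 144 to 167 at 24 hours (-1.47 ± 0.08 and -1.40 ± 0.08). It was lower in Ace without overlap (-0.50 ± 0.08 and -0.45 ± 0.08). In 5FU it turned from -0.39 ± 0.09 at 6 hours to 0.37 ± 0.09 at 24 hours, both called. At 6 hours the groups overlapped, at 79.24 to 97.04 CPM beside 89.45 to 151 in DMSO1. A fit of the compared groups only lost this early call. At 24 hours all 5FU libraries, at 168 to 225 CPM, lay above DMSO1, at 132 to 166.

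Kcnq1 turned in the opposite direction in 5FU. It was at 53.3 to 63.1 CPM beside 43.9 to 49.2 in DMSO1 at 6 hours (0.28 ± 0.06, FDR = 9.17e-05), the one increase called in 5FU at that time. At 24 hours it was at 28.2 to 32.6 CPM beside 65.5 to 89.4 (-1.36 ± 0.06, FDR = 3.94e-27), with a difference between times of -1.65 ± 0.09 (FDR = 2.82e-23). In Dox it was lower at both times (-0.65 ± 0.06 and -1.57 ± 0.06), and in Ace as well (-0.40 ± 0.06 and -0.34 ± 0.06), without overlap in any of them.

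Kcne1 rose in Dox while its pore partner fell. At 6 hours the Dox libraries were at 2.12 to 7.57 CPM (median 3.06), on 36 to 138 counts, beside 0.832 to 2.36 (median 1.63), and the groups overlapped (1.17 ± 0.28, FDR = 0.00017). Library 4 was the highest of them. At 24 hours 6 to 27 counts per library in Dox stood beside 1 to 6 in DMSO2, for 0.242 to 1.45 beside 0.0531 to 0.342 CPM (2.28 ± 0.46, FDR = 7.05e-06). The same gene was higher in DMSO1 than in DMSO2 at 6 hours, at 2.15 to 5.58 CPM (1.37 ± 0.28, FDR = 0.000169), and no difference was called in 5FU or Ace.

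**Figure D4:**
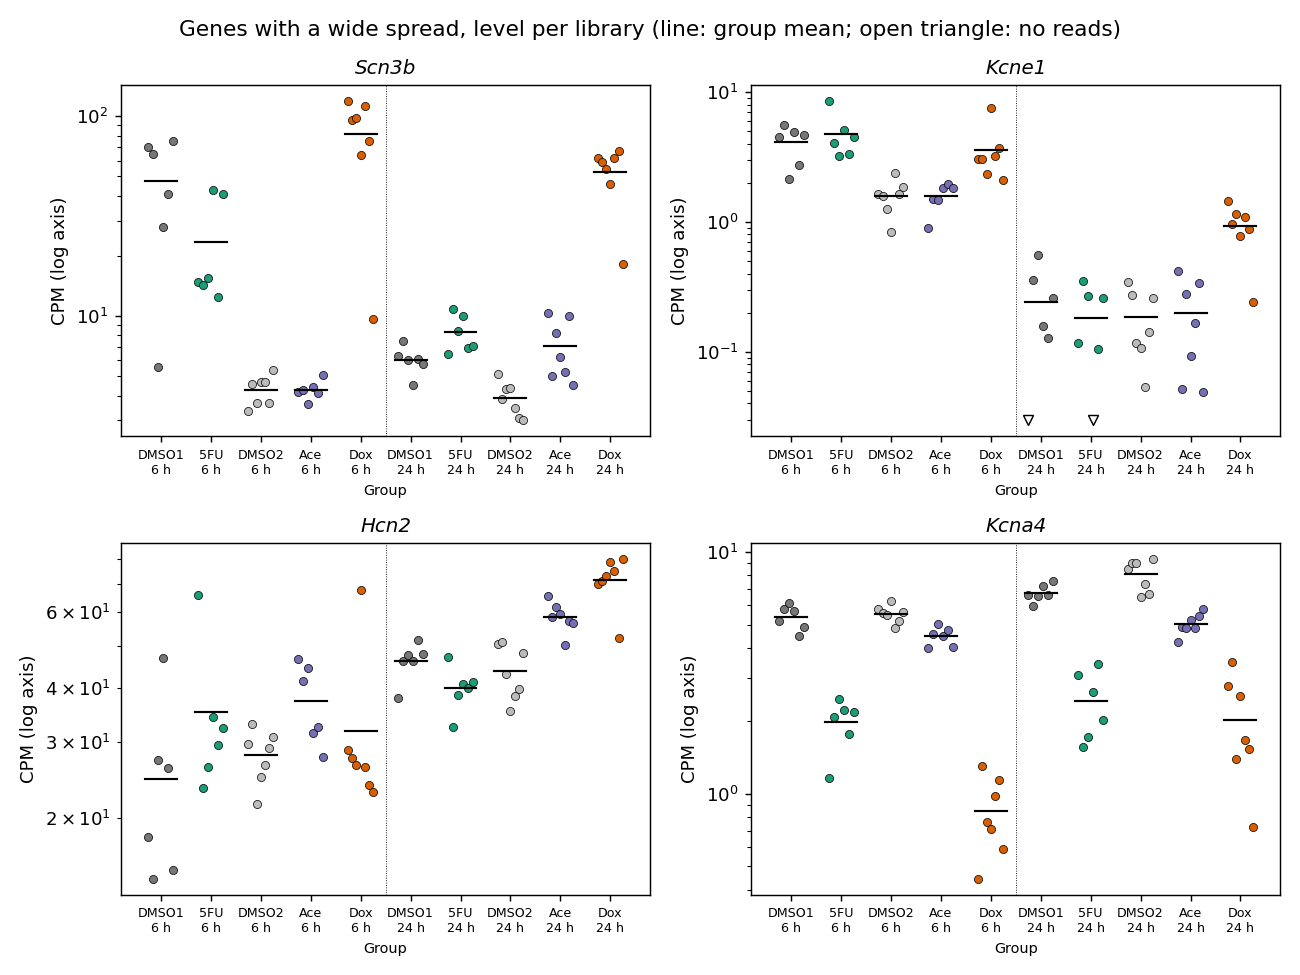
CPM on a log axis of Scn3b, Kcne1, Hcn2 and Kcna4 in each library (points) of the 10 groups, with the group mean as a line; open triangles stand for libraries with no reads. For Scn3b in Dox at 6 hours library 7 is at 9.64 CPM and the other libraries at 64.1 to 119.5, and for Hcn2 library 1 of 5FU and library 4 of Dox stand above their groups.

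The pacemaker channels Hcn4, the main form of the sinus node, and Hcn2 carry the inward current that starts each spontaneous beat. Hcn4 was lower at 6 hours in 5FU, at 18.9 to 43.1 CPM beside 54.3 to 80.4 (-1.14 ± 0.11, FDR = 2.34e-13), and in Dox, at 25.3 to 38.5 beside 48.5 to 62.5 (-0.92 ± 0.11, FDR = 1.08e-11). At 24 hours it was higher in Dox, with 100.3 to 113.3 CPM over all libraries and 51.1 to 65.6 in DMSO2 (0.84 ± 0.10, FDR = 2.22e-11). In 5FU at 24 hours, 67.5 to 82.0 stood beside 54.9 to 67.4 CPM without reaching the threshold (0.29 ± 0.11, FDR = 0.0179). The time differences were 1.43 ± 0.16 in 5FU and 1.76 ± 0.15 in Dox, both called, and 0.26 ± 0.15 in Ace, not called.

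Hcn2 was higher in Dox at 24 hours, at 52.3 to 79.8 CPM beside 35.4 to 51.1 (0.70 ± 0.18, FDR = 0.000345), and in no other drug comparison. At 6 hours its spread was wide: the 5FU libraries ran from 23.4 to 34.3 CPM apart from library 1 at 65.7, and the Dox libraries from 22.98 to 28.67 apart from library 4 at 67.6. Atp1b1, the beta subunit of the sodium pump, had small changes, from -0.28 ± 0.05 in 5FU at 6 hours to 0.20 ± 0.05 at 24 hours, -0.18 ± 0.05 in Ace at 6 hours and -0.18 ± 0.05 in Dox at 24 hours.

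**Figure D5:**
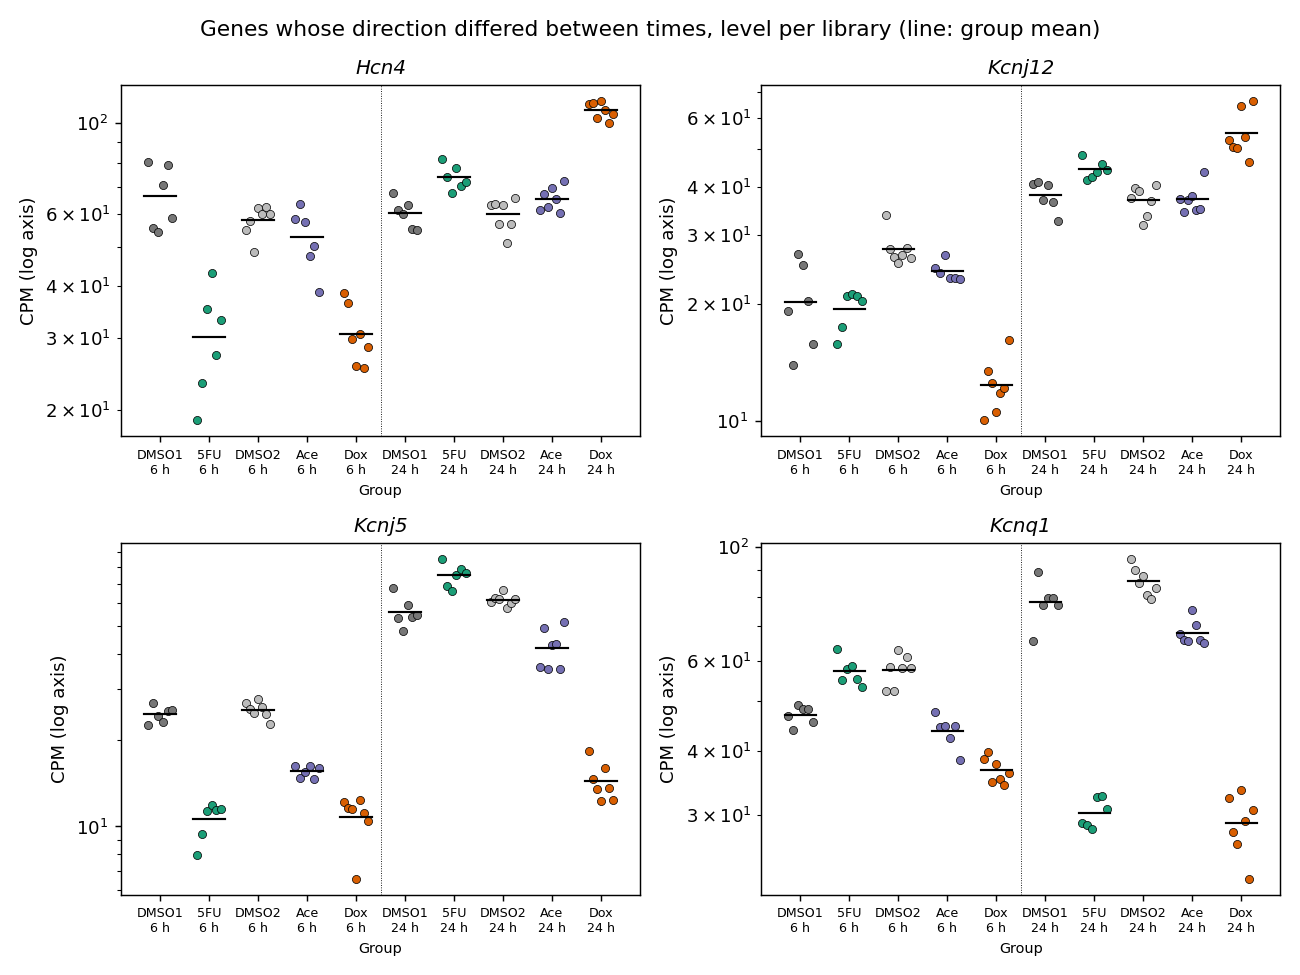
CPM on a log axis of Hcn4, Kcnj12, Kcnj5 and Kcnq1 in each library (points) of the 10 groups, with the group mean as a line. Hcn4 in Dox lies below DMSO2 at 6 hours (25.3 to 38.5 beside 48.5 to 62.5) and above it at 24 hours (100.3 to 113.3 beside 51.1 to 65.6), and Kcnj5 in 5FU goes from below to above DMSO1.

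The controls show what the drug effects are measured against. From 6 to 24 hours in DMSO1 and DMSO2 together, 27 of the 28 genes were called, 23 higher and 4 lower, beside 64.6% of all genes (32.7% higher and 31.9% lower), with a median of 0.65. All 6 calcium channel genes, all 7 inward rectifier and KATP channel genes and all 3 connexin genes were higher at 24 hours. The largest increases were those of Gja5 (1.67 ± 0.09), Gja1 (1.31 ± 0.05) and Kcnj2 (1.25 ± 0.06), and the largest decreases those of Kcne1 (-3.55 ± 0.29), Scn3b (-1.56 ± 0.29) and Kcna5 (-0.94 ± 0.21). The Scn3b value came from DMSO1, where the mean went from 47.5 CPM at 6 hours to 6.02 at 24 hours, beside 4.27 and 3.89 in DMSO2. Atp1b1 was also lower (-0.56 ± 0.04), and Hcn4 was not called (-0.04 ± 0.07).

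DMSO1 differed from DMSO2 at 6 hours in 13 of the 28 genes, 3 higher and 10 lower, beside 16.5% of all genes (9.87% higher and 6.6% lower). The higher ones were Scn3b, Kcne1 and Cacna2d1 (0.54 ± 0.08), and those that fell most were Scn4b (-0.73 ± 0.14), Kcnj3 (-0.60 ± 0.11) and Kcnj8 (-0.57 ± 0.15). At 24 hours none was called by edgeR, 5 had an unadjusted p under 0.05, and 0.433% of all genes were called.

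Dox and 5FU were compared through the difference of their effects, each against its own control. At 6 hours 17 of the 28 effects differed, 3 higher and 14 lower in Dox, beside 45.9% of all genes (22% higher and 24% lower). At 24 hours 20 differed, 5 higher and 15 lower (71.1% of all genes, 35.8% and 35.4%). Kcna5 was also called lower at 24 hours but is not ranked, since Dox was at the floor. Among the other called genes the most negative differences at 24 hours were those of Gja5 (-3.53 ± 0.22), Kcnk3 (-2.52 ± 0.17) and Kcnj5 (-2.52 ± 0.13), and the most positive those of Scn3b (3.29 ± 0.57), Kcne1 (2.67 ± 0.79) and Hcn2 (0.91 ± 0.27). Among called genes at 6 hours they were Kcnj11 (-1.37 ± 0.11), Kcna4 (-1.26 ± 0.27) and Kcnk3 (-1.14 ± 0.18), and Scn3b (5.27 ± 0.50), Cacna2d1 (0.96 ± 0.11) and Atp1b1 (0.38 ± 0.07). Kcna5 (-1.20 ± 0.48) and Kcne1 (0.96 ± 0.39) were not called. The 6-hour differences include the gap between the controls, where mean Scn3b was 47.5 CPM in DMSO1 and 4.27 in DMSO2. In the drugs themselves mean Scn3b was 82.1 CPM in Dox and 23.5 in 5FU. Cacna2d1 also differed between the controls, with a mean of 84.5 CPM in DMSO1 and 58.1 in DMSO2.

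Against Ace directly, Dox differed in 25 genes at 6 hours, 5 higher and 20 lower (62.1% of all genes, 30.6% higher and 31.4% lower). It differed in 25 at 24 hours, 4 higher and 21 lower (80.6% of all genes, 40.7% and 39.9%). Kcna5, at the floor in Dox, is again not ranked at 24 hours. Among the other called genes the largest differences were those of Gja5 (-4.86 ± 0.16), Gja1 (-2.52 ± 0.08) and Cacna1c (-2.38 ± 0.11), and Scn3b (2.88 ± 0.34), Kcne1 (2.15 ± 0.44) and Hcn4 (0.72 ± 0.10). At 6 hours they were Kcna4 (-2.39 ± 0.20), Kcnj11 (-2.01 ± 0.08) and Kcna5 (-1.97 ± 0.35), and Scn3b (4.26 ± 0.39), Kcne1 (1.18 ± 0.29) and Cacna2d1 (0.47 ± 0.08).

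The effects of 5FU and Ace at 24 hours differed in 15 genes, 4 higher and 11 lower in 5FU (37.3% of all genes, 18.2% and 19.1%). The 5FU effect was the lower one for Gja5 (-1.34 ± 0.17), Cacna1g (-1.06 ± 0.16) and Kcnq1 (-1.03 ± 0.09) and the higher one for Scn4b (1.07 ± 0.18), Kcnj5 (0.98 ± 0.12) and Kcnh2 (0.83 ± 0.12). Drugs were given at different concentrations, each a single one, so these differences belong to the doses used.

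Between times, the effect of 5FU differed for 17 genes, 9 higher and 8 lower at 24 hours (39.5% of all genes, 20.3% and 19.2%). The effect of Ace differed for 2 (11.6% of all genes, 5.58% higher and 6.06% lower), and that of Dox for 15, 3 higher and 12 lower (64.8% of all genes, 34% and 30.8%). The 3 higher in Dox were Hcn4, Kcnj12 and Cacna1h.

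Other genes of the same systems were counted as well. Of 54 further channel genes, 27 were called in Dox at 6 hours, 15 higher and 12 lower, a share of 50% beside 64.2% of all genes. At 24 hours 48 were called, 28 higher and 20 lower, a share of 88.9% beside 81.4%. The median at 24 hours was 0.29 there beside -1.55 in the 28 genes. Cacnb1, the beta subunit of skeletal muscle, was the largest, with a mean of 92.1 CPM beside 5.96 at 24 hours (3.95 ± 0.10). Scn1a, a sodium channel pore of nerve (-3.71 ± 0.14), and Kcng2, a silent potassium channel subunit (-2.85 ± 0.13), were the next. In 5FU the counts were 19 (4 higher) and 24 (4 higher), in Ace 17 (5 higher) and 24 (5 higher), at 6 and 24 hours. The shares called were 35.2% and 44.4% in 5FU, beside 47.9% and 55.8% of all genes, and 31.5% and 44.4% in Ace, beside 31.7% and 37.2%.

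Of 14 pump and exchanger genes 10 were called in Dox at 24 hours, 4 higher and 6 lower, a share of 71.4% beside 81.4% of all genes. The sodium-calcium exchanger Slc8a1 had a mean of 34.8 CPM beside 424 (-3.61 ± 0.07, FDR = 2.49e-49). The pump regulator Fxyd6 (-1.80 ± 0.08) fell as well, beside -0.18 for Atp1b1. At 6 hours Dox called 10 (5 higher and 5 lower), 5FU called 6 and 8 at 6 and 24 hours, and Ace called 6 and 7. These shares were 71.4% in Dox at 6 hours (64.2% of all genes), 42.9% and 57.1% in 5FU (47.9% and 55.8%) and 42.9% and 50% in Ace (31.7% and 37.2%).

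Of 19 intercalated disc and scaffold genes, which hold connexins and channels in place, 16 were called in Dox at 24 hours, 5 higher and 11 lower, a share of 84.2% beside 81.4% of all genes. The largest decreases were those of ankyrin-B (Ank2, -2.90 ± 0.09), desmoplakin (Dsp, -2.47 ± 0.07) and N-cadherin (Cdh2, -2.39 ± 0.05). At 6 hours Dox called 13 (3 higher and 10 lower), 5FU 13 and 14, and Ace 6 and 5. These shares were 68.4% in Dox at 6 hours (64.2% of all genes), 68.4% and 73.7% in 5FU (47.9% and 55.8%) and 31.6% and 26.3% in Ace (31.7% and 37.2%). Dsp (-0.79 ± 0.07) and the channel partner Fgf13 (-0.81 ± 0.08) led the disc genes in 5FU at 24 hours, and Ank2 (-0.60 ± 0.08) in Ace.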

How the data were processed

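PolyA RNA of 65 libraries was sequenced by the study. The authors deposited a table of estimated counts per gene, made with kallisto 0.46.0 and summed from transcripts to Entrez genes, from which they had removed genes with low counts. The values are whole numbers as deposited. Entrez identifiers were matched to RefSeq symbols (14009 of 14554), and 28 of the 30 listed genes were found by exact symbol. Reads shared between related channel genes are split by estimation, so levels of close paralogs are less certain.

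A minimum of 10 counts in 1 or more libraries was set. edgeR 4.0.16 (R 4.3.3) was run with TMM scaling and the quasi-likelihood test in 1 fit of all 10 groups, without covariates. Adjustment was by Benjamini-Hochberg over all 14554 genes with a threshold of 0.01. Standard errors are the log2 fold change divided by the square root of F. CPM used TMM-scaled library sizes, whose factors ran from 0.859 to 1.07. Library totals, from 14332827 to 25738297, limit precision for genes with few counts. A level at or below 3 counts per library was taken as the floor, which covers counting error only. Of 180 pairs of libraries within groups, none agreed within sampling noise (lowest chi-square per gene 2.91). The fit was tested on simulated data.

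The genes and lists were chosen with earlier results of these data known. All listed genes are named. In each other list, called genes with a mean count of at least 100 and among the 3 largest absolute changes of a drug comparison could be named. Alternatives were DESeq2 (1.42.0) size factors and test, library size only, other filters, an FDR below 0.1, a fit of the compared groups only and leaving out each library. The authors' own table of comparisons was not used. Some results on single genes of the other lists are not reported here.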

Additional observations from a re-analysis of the deposited data

Results flagged for a closer look

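In each of 280 groups of libraries (28 genes in 10 groups), the most extreme library was compared with the range of its group, and 24 stood apart. Chance alone gives about 1 in 20 such groups, so single ones carry little weight. Of the 24, 5 came from library 4 of Dox at 6 hours and 4 from library 1 of 5FU at 6 hours.

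In Ace at 24 hours, Scn4b was at 15.2 CPM in library 2, beside 8.03 to 9.55 in the others. Kcnj12 was at 43.7 CPM in library 7, beside 34.4 to 37.9 in the others. Kcnj8 was at 15.3 CPM in library 7, beside 8.21 to 10.3 in the others. Atp1b1 was at 621 CPM in library 2, beside 572 to 592 in the others.

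In Dox at 24 hours, Scn4b was at 2.52 CPM in library 1, beside 3.79 to 4.68 in the others. Abcc9 was at 101 CPM in library 7, beside 76.1 to 85.0 in the others. Kcnd3 was at 1.94 CPM in library 6, beside 3.80 to 5.20 in the others. Hcn2 was at 52.3 CPM in library 6, beside 69.8 to 79.8 in the others. Gjc1 was at 33.6 CPM in library 1, beside 27.9 to 29.4 in the others.

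In DMSO1 at 24 hours, Scn4b was at 15.9 CPM in library 1, beside 10.7 to 12.3 in the others. Atp1b1 was at 697 CPM in library 1, beside 544 to 573 in the others.

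In DMSO2 at 24 hours, Scn4b was at 16.7 CPM in library 4, beside 9.17 to 12.3 in the others.

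In DMSO2 at 6 hours, Kcnj12 was at 33.9 CPM in library 1, beside 25.4 to 27.8 in the others.

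In 5FU at 24 hours, Kcnj3 was at 16.3 CPM in library 3, beside 20.06 to 22.03 in the others. Kcnd3 was at 4.95 CPM in library 5, beside 3.35 to 3.92 in the others.

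In Dox at 6 hours, Kcnj5 was at 6.58 CPM in library 4, beside 10.5 to 12.3 in the others. Kcne1 was at 7.57 CPM in library 4, beside 2.12 to 3.72 in the others. Kcnk3 was at 25.6 CPM in library 4, beside 12.4 to 17.2 in the others. Hcn2 was at 67.6 CPM in library 4, beside 22.98 to 28.67 in the others. Gja5 was at 4.17 CPM in library 4, beside 10.6 to 12.6 in the others.

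In 5FU at 6 hours, Kcne1 was at 8.54 CPM in library 1, beside 3.19 to 5.09 in the others. Hcn2 was at 65.7 CPM in library 1, beside 23.4 to 34.3 in the others. Gja5 was at 2.48 CPM in library 1, beside 6.00 to 7.43 in the others. Atp1b1 was at 878 CPM in library 1, beside 672 to 724 in the others.

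The effect of 5FU differed between 24 and 6 hours (edgeR interaction, FDR below 0.01) for 17 genes. The log2 fold change was higher at 24 hours for Kcna5 (2.05), Kcnj5 (1.63), Hcn4 (1.43), Kcnj3 (1.14), Scn4b (1.02), Kcnh2 (0.77), Kcnk3 (0.76), Kcnj11 (0.74) and Atp1b1 (0.48). It was lower at 24 hours for Kcnq1 (-1.65), Cacna1d (-1.40), Abcc9 (-1.18), Cacna1c (-0.93), Cacna1g (-0.74), Cacna2d1 (-0.64), Kcnj2 (-0.47) and Gjc1 (-0.43).

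The effect of Ace differed between 24 and 6 hours (edgeR interaction, FDR below 0.01) for 2 genes. The log2 fold change was higher at 24 hours for Cacnb2 (0.37). It was lower at 24 hours for Cacna1d (-0.93).

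The effect of Dox differed between 24 and 6 hours (edgeR interaction, FDR below 0.01) for 15 genes. The log2 fold change was higher at 24 hours for Hcn4 (1.76), Kcnj12 (1.74) and Cacna1h (1.29). It was lower at 24 hours for Gja5 (-4.15), Abcc9 (-2.56), Cacna1c (-1.96), Cacna2d1 (-1.40), Cacna1g (-1.35), Kcnq1 (-0.91), Kcnj5 (-0.86), Cacnb2 (-0.80), Gja1 (-0.72), Kcnk3 (-0.63), Kcnj11 (-0.33) and Atp1b1 (-0.28).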

How the results depend on the processing

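Counts of called genes stayed within 1.5 times the reported ones apart from the following. At an FDR below 0.1, 18 genes were called for Ace at 24 hours, 3 for DMSO1 against DMSO2 at 24 hours and 6 for the difference of the Ace effect between times. That difference had 6 calls in a fit of the compared groups only and 0 to 2 when 1 library was left out, beside 2 as reported. For the Ace effect between times, 0 was reached without library 4 of Ace at 6 hours. Beside those given with the results, further calls of single genes did not hold in some fits with 1 library left out. In 5FU at 6 hours this was Cacna1g (3 of 12 fits). In Ace they were Kcnj8 (1 of 13), Gjc1 (5 of 13) and Atp1b1 (3 of 13) at 6 hours and Cacna2d1 (4 of 14) at 24 hours. In Dox they were Cacna1g (1 of 14) at 6 hours and Atp1b1 (2 of 14) at 24 hours. A fit of the compared groups only lost 8 calls and gained 10, among the lost ones Cacna2d1 and Kcnh2 in 5FU at 6 hours and Abcc9 in Dox at 6 hours.

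Scaling by library size only moved the median of all genes by -0.153 on the log2 scale for Dox at 6 hours, by 0.2 for the Dox effect between times and by -0.122 for Dox against Ace at 6 hours. All genes in Dox at 6 hours were then 3064 higher and 5998 lower, beside 4589 and 4760. For the Dox effect between times they were 6234 higher and 3379 lower, beside 4946 and 4478, and the listed genes 5 higher and 9 lower, beside 3 and 12. No called gene of the list changed direction under any alternative run. No estimate that changed sign was called, and the cause was not tested. Without library 1 of 5FU and library 4 of Dox at 6 hours and library 1 of DMSO1 at 24 hours, Cacna1d (0.018) and Kcne1 (-0.040) turned in 5FU at 6 hours and Hcn2 (-0.087) in Dox at 6 hours. Without library 3 of DMSO1 and library 7 of Dox at both times, Kcnj2 (0.052) and Kcnj12 (0.037) turned in 5FU at 6 hours. With library size only, Gjc1 was -0.070 in 5FU at 6 hours, Scn3b -0.032 in Ace at 6 hours, Kcna5 0.057 in Ace at 24 hours and Atp1b1 -0.061 in Dox at 6 hours. In the fit of the compared groups only, Gjc1 was -0.0006581 in 5FU at 6 hours and Kcna5 0.003015 in Ace at 24 hours. With the filterByExpr filter Kcne1 was 0.009209 in Ace at 6 hours and Kcna5 0.004955 in Ace at 24 hours. With DESeq2 scaling Cacna1h was -0.002487 in Ace at 24 hours, and with the DESeq2 test it was -0.002542 and Scn3b -5.74e-05 in Ace at 6 hours.

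Leaving out 1 library turned the sign in 49 fits. In 5FU at 6 hours the ranges were -0.2394 to 0.02571 for Cacna1d, -0.08287 to 0.05561 for Kcnj2, -0.1473 to 0.04085 for Kcnj12, -0.033 to 0.3192 for Kcne1 and -0.0196 to 0.01989 for Gjc1. In 5FU at 24 hours they were -0.01087 to 0.1098 for Cacna1h and -0.6666 to 0.08442 for Kcne1. In Ace at 6 hours they were -0.04838 to 0.05972 for Scn3b, -0.01232 to 0.1262 for Cacna1c and -0.1191 to 0.1192 for Kcne1. In Ace at 24 hours they were -0.03928 to 0.03715 for Cacna1h, -0.0367 to 0.03097 for Kcnj12, -0.153 to 0.105 for Kcna5 and -0.1439 to 0.3368 for Kcne1. In Dox at 6 hours the range was -0.1038 to 0.2626 for Hcn2.

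No paired analysis was possible because the columns of the deposited table carry no replicate numbers that tie a library of one group to a library of another.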

Other observations

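Atrial and ventricular markers were measured beside the channel genes. In Dox at 24 hours the summed level of 5 atrial markers was 11190 to 14370 CPM beside 1041 to 1748 in DMSO2, and 2 of them were higher and 3 lower. Most of the sum was Nppa, at 10910 to 13690 CPM beside 763.5 to 1494, while Myl7 was lower, at 49.9 to 67.8 beside 63.7 to 85.02. The 2 ventricular markers summed to 3586 to 5327 CPM beside 4119 to 5000, overlapping groups. Of the 2 glial markers found, 1 was lower, with sums of 1.93 to 3.29 CPM beside 4.87 to 8.34. Over all genes 40.4% were called higher and 41% lower in Dox at 24 hours. The part of these markers in the results on the channel genes was not tested.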
